A study of Bos indicus x Bos taurus with 78 samples.

Results

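The normal loin muscle biopsies of the series were divided by how much of each small RNA library was miR-1, and the other miRNAs were compared between the upper and the lower side. Of the 53 steers labelled normal, 26 had a miR-1 share above the median of the group and 26 had one below it. The steer at the median was left out, so the comparison used 52 of the 78 animals of the series. The study took Longissimus lumborum biopsies from male Bos indicus x Bos taurus steers and sequenced small RNA from total RNA of the frozen tissue, 1 library per animal. Its remaining 25 animals were labelled dark-cutting, each with a degree written as a fraction, and they served here as a separate set of animals. Both sides of the split carry the same label, tissue, sex and cross, and the labels give neither age nor treatment. The sides were chosen by a measured value, the miR-1 share, and are not groups of the study.

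MicroRNAs are short RNAs that, loaded into an Argonaute protein, pair with messenger RNAs through a seed near their 5′ end and lower their output. miR-1 is the main miRNA of striated muscle, where it is known to favour differentiation over proliferation, and it is transcribed together with miR-133a from the same precursors. A count table shows only proportions, so a larger miR-1 share means fewer counts of everything else, and the comparison below asks how that remainder was composed. For this reason miR-1 was removed before scaling, and every level below is a log2 CPM, the log2 of a CPM, which is a count scaled to 1000000 counts of miRNAs other than miR-1. In bulk muscle, fewer cells of a type and less RNA per cell cannot be told apart.

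The miR-1 share chose the sides and is given as a description. In the 26 high-share steers it ran from 84.8% to 88.6% with a median of 86.7%. In the 26 low-share steers its range was 72.3% to 84.6%, and its median 82.5%. The steer at the median stood at 84.71%. The nearest steers below it were at 84.64% and 84.50%, and the 2 nearest above it were both at 84.81%, so the division passes through a dense part of the range. The lowest steer, normal replicate 20 at 72.3%, lay apart from the next at 78.7%. The miR-1 counts had a median of 2718780 in high-share and 2675300.5 in low-share libraries, and the counts of all other miRNAs had medians of 446538.5 and 579845. With similar library totals, both pairs of medians follow from the share that chose the sides. There were 6.46 ± 0.591 miR-1 counts (SD, n = 26) for each count of another miRNA on the high side and 4.63 ± 0.701 (SD, n = 26) on the low side.

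**Figure D1:**
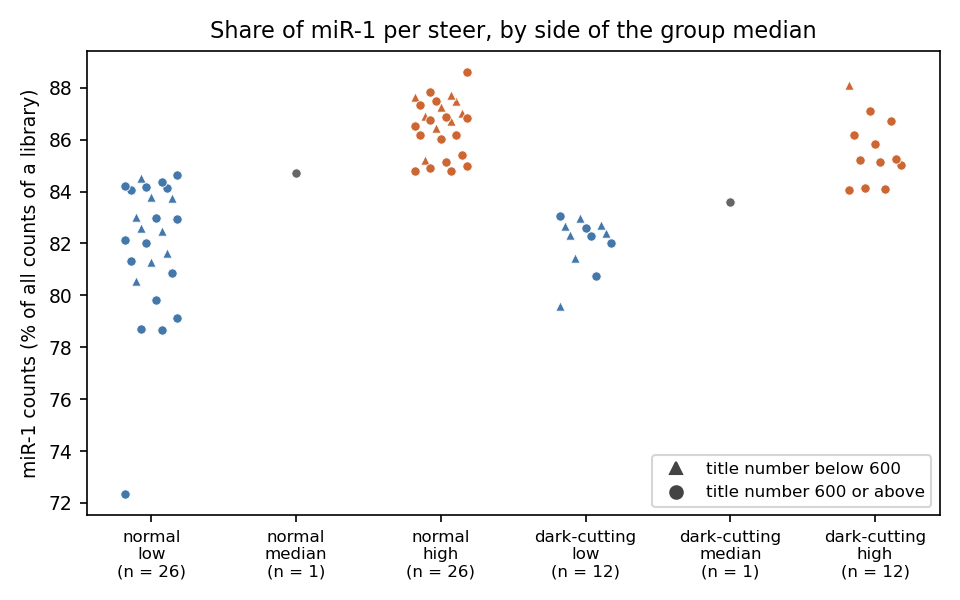
Percent of all counts of a library that were miR-1, 1 point per steer, for the low side, the median steer and the high side of the normal and of the dark-cutting animals. Triangles are steers with title numbers below 600 and circles those at 600 or above. The sides meet near 84.7% in normal steers, and 1 low-side steer stands apart at 72.3%.

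The 53 normal libraries held between 1427817 and 4535675 counts, and the middle one 3211620. The mean log10 total was 6.49 on the high and 6.50 on the low side (two-sided permutation test, adjusted p = 1.0 over 3 measures). After thinning each library to 212155 counts other than miR-1, 351 and 354 miRNA rows had a count (permutation test, adjusted p = 0.595). Steers with title numbers below 600 numbered 9 on each side. What the title numbers stand for is not given by the labels. The libraries that stood apart were 2: normal replicate 20, by its miR-1 share, and normal replicate 19, on the high side, with 8593 counts of the red blood cell miRNA miR-451 where the low-share libraries had 129 to 1564 and the high-share median was 261.5.

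Of 224 miRNAs tested, 45 differed between the sides (edgeR quasi-likelihood test, Benjamini-Hochberg adjusted p under 0.05), or 20.1%. Of these, 18 were higher with a high miR-1 share (8.04% of those tested) and 27 were lower (12.1%). The split of the calls depends on the scaling: with libraries scaled by the total of the other miRNAs it was 25 higher and 16 lower. Over all 224 miRNAs the median log2 difference, high minus low, was -0.02. At an unadjusted p under 0.05 there were 71 (31.7%). The higher calls were led by let-7a-3p, let-7g, let-7f, miR-30a-5p and miR-486, and the lower calls by miR-497, miR-15a, miR-195, miR-455-3p and miR-145. The differences were mostly small, with a median size of 0.33 on the log2 scale among the calls, and the sides overlapped for every miRNA described below.

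Each miRNA tested also contributes to the denominator of the share. The test was therefore repeated for each miRNA with its own counts left out of the share before the steers were divided, which gave 45 calls, 44 of them shared with the 45 above. Direction changed for 1 of 224 miRNAs, miR-143. Only 9 distinct divisions of the steers arose over these 224 miRNAs. Many miRNAs therefore kept the same sides, and their values could not change. The differences of miR-26b, miR-181a and miR-107, at -0.22, -0.26 and -0.32, were the same as before. For such rows the repeated test is no check on the shared denominator. Leaving out a miRNA's own counts also does not remove those of others that vary with it. With the 10 most abundant miRNAs left out of the share, 8 steers changed side and 30 miRNAs were called, of which 23 were among the 45.

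**Figure D2:**
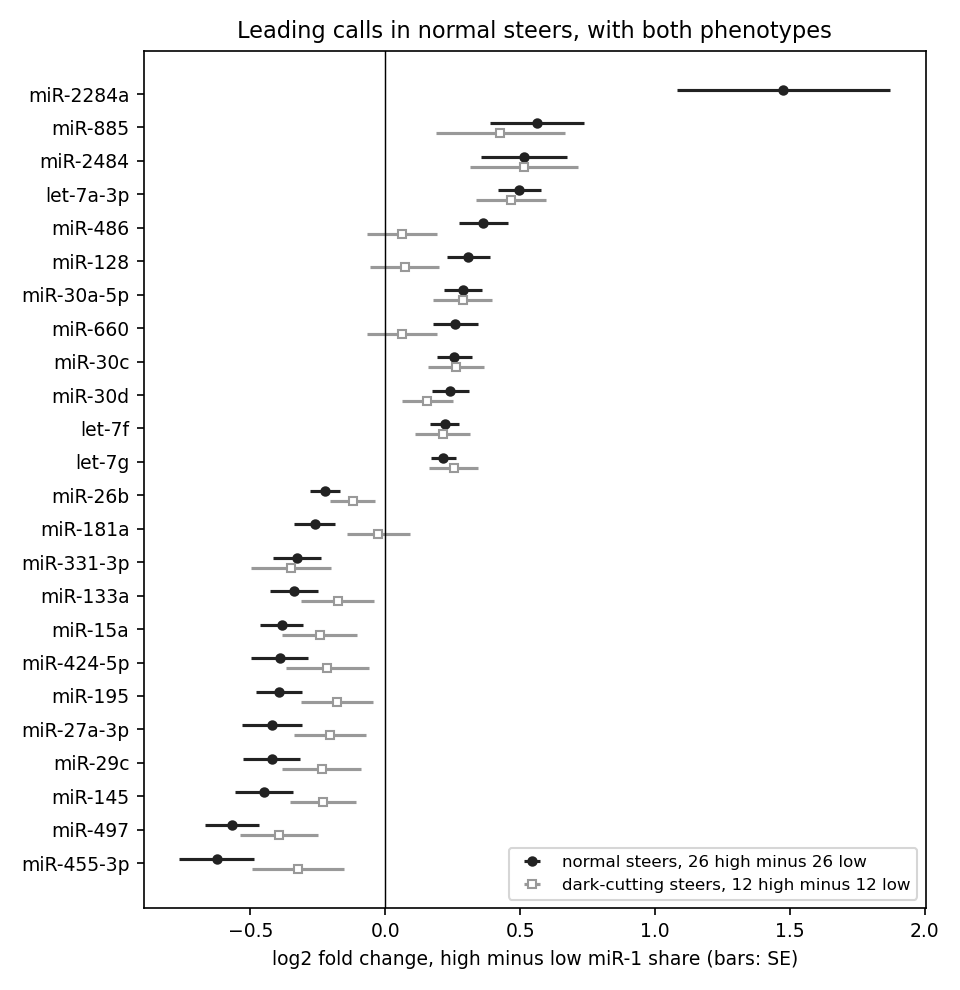
Log2 fold change, high minus low miR-1 share, with its standard error, for the 12 higher and 12 lower calls with the smallest p in normal steers. Filled circles are the normal steers and open squares the dark-cutting steers, in whom no miRNA passed. Differences run from -0.63 for miR-455-3p to 1.48 for the sparsely counted miR-2284a, which was not tested in dark-cutting steers.

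The let-7 family, known for restraining proliferation and growth-factor signalling in differentiated tissue, had 10 tested rows, of which 3 passed, all higher, and 6 lay above 0. Of all 224 miRNAs tested, 104 lay above 0 and 18 (8.04%) were called higher. The median log2 difference of the let-7 rows was 0.06. The row with the smallest p of all was let-7a-3p, the strand of the let-7a hairpin opposite the usual mature one. In low-share steers its log2 CPM was 7.61 at the lowest, 8.42 at the median and 9.05 at the highest, and in high-share steers it was 8.20, 8.92 and 9.44. The ranges overlap, but 25 of 26 high-share steers lay above the low-share median. The difference was 0.50 ± 0.08 (SE) on the log2 scale, a 1.41-fold level, with an edgeR adjusted p of 1.1e-05. It passed under each of the 17 alternatives for this row, with values from 0.42 to 0.69 in those on the same scale. let-7g ranged in log2 CPM from 14.29 to 14.67 with a median of 14.51 on the low side and from 14.37 to 15.13 with a median of 14.72 on the high side. Its difference was 0.21 ± 0.05 (SE), and let-7f differed by 0.22 ± 0.05 (SE), each with 22 of 26 high-share steers above the low-share median. The usual strand, let-7a-5p, had nearly equal medians in log2 CPM, 14.67 on the low and 14.68 on the high side, and a difference of 0.03 ± 0.07 (SE, edgeR adjusted p = 0.823). Reads of let-7 members that differ by few bases can be counted in more than 1 row.

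The miR-30 family, abundant in striated muscle, had all 7 of its tested rows above 0 with a median of 0.17, and 3 passed. Over all 224 miRNAs, 104 lay above 0 and 8.04% passed as higher. miR-30a-5p ran in log2 CPM from 14.41 to 15.54 with a median of 14.62 in low-share steers. In high-share steers it lay between 14.51 and 15.51 with a median of 15.04. The extremes of the sides are alike, and the middle of the distribution differs, with 23 of 26 high-share steers above the low-share median and a difference of 0.29 ± 0.07 (SE). miR-30c differed by 0.26 ± 0.07 (SE) with 23 of 26 steers above that median, and miR-30d by 0.24 ± 0.07 (SE) with 21 of 26. The most abundant member, miR-30e-5p, had a difference of 0.17 ± 0.08 (SE) and did not pass (edgeR adjusted p = 0.106).

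**Figure D3:**
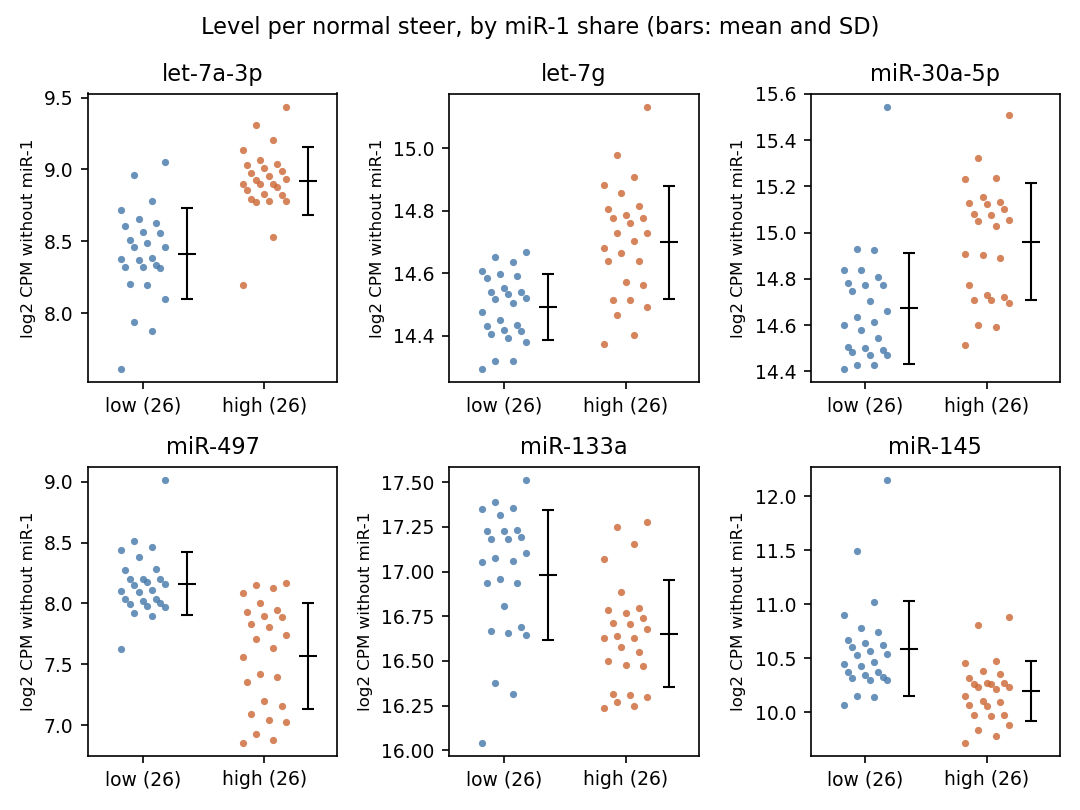
Log2 CPM, counted without miR-1, of 6 miRNAs in each normal steer on the low (26) and high (26) side of the median miR-1 share, with mean and SD beside the points. let-7a-3p, let-7g and miR-30a-5p lay higher and miR-497, miR-133a and miR-145 lower on the high side, with overlapping points in every panel.

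The miR-15/16 family, whose members share a seed and are known to slow the cell cycle, had 6 tested rows. All 6 lay below 0, or 5 of 6 when libraries were scaled by the total of the other miRNAs. The median was -0.28, and 3 passed, all lower. Over all 224 miRNAs, 120 lay below 0 and 12.1% passed as lower. miR-497 and miR-195 come from one cluster. miR-497 ranged in log2 CPM from 7.63 to 9.01 with a median of 8.13 on the low side and from 6.86 to 8.17 with a median of 7.67 on the high side. The high side reached well below the low side's range, and 2 of 26 high-share steers lay above the low-share median. Its difference was -0.57 ± 0.10 (SE), which makes its level 1.48-fold higher in low-share steers (edgeR adjusted p = 4.6e-05). miR-195 had low-share values of 10.19 to 11.58 with a median of 10.79 and high-share values of 9.85 to 10.99 with a median of 10.35. It differed by -0.39 ± 0.08 (SE), with 3 of 26 high-share steers above the low-share median. miR-15a differed by -0.38 ± 0.08 (SE), with 4 of 26. miR-16a and miR-16b had differences of -0.18 ± 0.09 and -0.15 ± 0.07 (SE) and did not pass (edgeR adjusted p = 0.135 and 0.134).

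Among the 6 tested miRNAs that mark skeletal muscle, 1 rose and 3 fell, with a median log2 difference of -0.16, and 2 lay above 0. The 1 that rose was miR-486, which also belongs to the red blood cell list. Over all 224 miRNAs, 8.04% rose, 12.1% fell and 104 lay above 0. With libraries scaled by the total of the other miRNAs, 3 of the 6 muscle rows lay above 0 and 1 fell. miR-133a, the partner of miR-1 on its precursors, ran in log2 CPM from 16.04 to 17.51 with a median of 17.07 in low-share steers and from 16.24 to 17.28 with a median of 16.64 in high-share steers. It was thus lower in steers whose libraries held proportionally more miR-1, with a difference of -0.34 ± 0.09 (SE, edgeR adjusted p = 0.0052), with 4 of 26 high-share steers above the low-share median. miR-133a averaged 12.95% ± 2.87 (SD, n = 26) of the counts other than miR-1 on the low side and 10.7% ± 1.96 (SD, n = 26) on the high side. Each count of it stood beside 25.3 to 64.7 counts of miR-1 on the low side, with a median of 34.1, and beside 39.5 to 86.4 on the high side, with a median of 59.4. This ratio contains miR-1, which chose the sides, so it is given as a description and is no support for the fall of miR-133a. Because miR-133a is so abundant, it helps to set the share. With its own counts left out of the share, its difference was -0.22 ± 0.10 (SE) and no longer passed (edgeR adjusted p = 0.107). The call was also lost with the 10 most abundant miRNAs left out of the share, where the difference was -0.16 (adjusted p = 0.307).

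miR-133b, from another precursor, fell by 0.26 ± 0.08 (SE), and was lost on leaving out any of 5 of the 52 steers, with an adjusted p of at most 0.061. miR-208b, which lies in an intron of a slow myosin gene, had log2 CPM values of 7.73 to 10.42 with a median of 9.10 on the low side and of 6.90 to 10.004 with a median of 8.39 on the high side. Its difference of -0.50 ± 0.19 (SE) barely passed (edgeR adjusted p = 0.0478) and was lost on leaving out any of 30 of the 52 steers. miR-499, the other miRNA of a slow myosin gene, had a difference of 0.08 ± 0.10 (SE), and miR-206, a miRNA of regenerating muscle, one of -0.06 ± 0.07 (SE). Neither passed (edgeR adjusted p = 0.665 and 0.621). miR-486, made in muscle and in red blood cells, rose from a low-share median of 11.49 to a high-share median of 11.89, by 0.36 ± 0.09 (SE), with 23 of 26 high-share steers above the low-share median.

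Of the vessel-wall miRNAs miR-143 and miR-145, which come from one precursor, miR-145 fell. Its log2 CPM was 10.07 to 12.15 with a median of 10.50 in low-share steers and 9.72 to 10.88 with a median of 10.22 in high-share steers, a difference of -0.45 ± 0.11 (SE), with 2 of 26 high-share steers above the low-share median. miR-143 was the largest item among the counts other than miR-1, at 17.1% ± 5.83 (SD, n = 26) on the low and 15.3% ± 3.91 (SD, n = 26) on the high side. Its difference of -0.25 ± 0.14 (SE) did not pass (edgeR adjusted p = 0.209) and became 0.05 ± 0.14 (SE) with its own counts left out of the share. The 2 together summed to 98709 to 290066 CPM on the high side and to 86723 to 337778 on the low side. The endothelial miR-126-3p and miR-126-5p had differences of -0.14 ± 0.08 and -0.17 ± 0.08 (SE) and did not pass, with sums of 26268 to 42807 on the high and 19779 to 43417 on the low side. None of the 4 fibroblast rows and none of the 6 white blood cell rows passed. The white blood cell rows all lay below 0, with a median of -0.13, and summed to 592 to 2042 CPM on the high and 601 to 1954 on the low side. Of all 224 miRNAs tested, 20.1% passed and 120 lay below 0. Epithelial miRNAs were nearly absent, with a sum of at most 10.97 CPM in any of these libraries. Of 3 tested miRNAs abundant in nerve, 2 passed, miR-128 by 0.31 ± 0.08 (SE) and miR-7 by 0.24 ± 0.08 (SE), the latter lost on leaving out 1 of the 52 steers. Both rose, as did 8.04% of all miRNAs tested. The part of any of these cell types in the other differences was not tested.

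Of 3 tested red blood cell miRNAs, 1 passed with all steers in edgeR, where 8.04% of all miRNAs tested rose. It was miR-486, also made in muscle, which rose by 0.36 ± 0.09 (SE). The 3 together had a median sum of 4802 CPM on the high and 3891 on the low side. The others show how far 1 library can carry a value. miR-451 and miR-144 had differences of 0.46 ± 0.34 and 0.14 ± 0.33 (SE), neither passing with all steers in edgeR (adjusted p = 0.368 and 0.783), although their medians were lower on the high side. In log2 CPM, miR-451 had medians of 9.34 on the high and 9.72 on the low side, and miR-144 had 5.12 and 5.86. Without normal replicate 19 the differences were -0.43 ± 0.17 and -0.59 ± 0.23 (SE), with adjusted p of 0.0599 and 0.0543. Without both libraries that stood apart, 53 miRNAs passed, 44 of them among the 45, and miR-144 was one of the 53 (adjusted p = 0.0441, difference -0.62). miR-144 also passed as lower with DESeq2 (-0.58, adjusted p = 0.0389), in the 17 outermost steers of each end (-0.80, edgeR adjusted p = 0.0219) and below title number 600 (-1.18, edgeR adjusted p = 0.0033). miR-451 passed as lower in the outermost steers (-0.68, edgeR adjusted p = 0.0043).

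Several smaller families leaned to the low side of 0. Of all 224 miRNAs tested, 120 lay below 0 and 12.1% fell. All 5 tested miR-29 rows, a family known to restrain collagen genes, lay below 0 with a median of -0.18, or 4 of 5 when scaled by the total of the other miRNAs, and 2 fell. miR-29c fell from a low-share median log2 CPM of 10.86 to a high-share median of 10.37, a difference of -0.42 ± 0.11 (SE), with 3 of 26 high-share steers above the low-share median. miR-29a fell by 0.18 ± 0.07 (SE), a call lost on leaving out any of 31 of the 52 steers. In the miR-26 family, miR-26b fell by 0.22 ± 0.06 (SE) with 1 of 26 high-share steers above the low-share median. Its log2 CPM was 12.66 to 13.87 on the low and 13.06 to 13.77 on the high side, so the fall is one of the middle and not of the extremes. The more abundant miR-26a had a difference of -0.01 ± 0.06 (SE), with a sign that changed with the scaling. miR-181a, a miRNA of myoblast differentiation, fell by 0.26 ± 0.08 (SE). When scaled by the total of the other miRNAs, miR-29a, miR-26b and miR-181a no longer passed (edgeR adjusted p = 0.289, 0.0699 and 0.0751).

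All 8 tested rows of a list of atrophy-related miRNAs lay below 0, with a median of -0.17, where 120 of all 224 miRNAs lay below 0 and 12.1% fell. In the list 2 fell, miR-27a-3p with a difference of -0.42 ± 0.11 (SE) and miR-27b with one of -0.16 ± 0.05 (SE). miR-27a-3p had log2 CPM values of 11.98 to 13.72 with a median of 12.54 on the low side and of 11.24 to 12.85 with a median of 12.12 on the high side. Both also belong to a list for glucose and lipid metabolism, of whose 8 tested rows 3 fell, the other being miR-107 at -0.32 ± 0.10 (SE). That list was evenly divided, with 4 rows above 0 and 4 below and a median of -0.03. Its tested miR-378 rows all lay above 0, and none of them passed. When scaled by the total of the other miRNAs, only miR-27a-3p passed in either list, with miR-27b at an adjusted p of 0.235 and miR-107 at 0.0945. The calls of miR-27b and miR-107 were also lost on leaving out any of 9 and any of 5 of the 52 steers. Also lower was miR-455-3p, with the steepest fall of all calls, -0.63 ± 0.14 (SE), and 2 of 26 high-share steers above the low-share median. None of 20 tested rows of the imprinted DLK1-DIO3 cluster passed, with 11 above and 9 below 0. Of the group around miR-17 and miR-92a, known as oncogenic clusters, 1 of 9 passed, miR-106b at -0.17 ± 0.06 (SE). The other direction was more frequent in this group, with 6 rows above 0, 3 below and a median of 0.09. The call of miR-106b was lost on leaving out any of 17 of the 52 steers. It was also lost in 8 of 17 alternatives, among them scaling by the total of the other miRNAs (edgeR adjusted p = 0.326).

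A sparse row was also called. miR-2284a, of a ruminant family with many similar copies, had a median of 12 counts in high-share and 2 counts in low-share libraries. The highest value was 25 counts on both sides, and 2 high-share and 4 low-share libraries had none. Its fitted difference of 1.48 ± 0.40 (SE) rests on a mean of 8.6 counts. Of the 23 libraries that reached the level of the low-count filter, 17 were on the high side, so the row was tested mainly because it is high there. It did not pass the filter in steers with title numbers of 600 or above, nor in dark-cutting steers, and reads of its near copies may be counted in this row or in theirs. Of the 12 rows that passed the filter in the miR-2284 and miR-2285 families, 1 rose and 1 fell, where 8.04% and 12.1% of all miRNAs tested did.

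A hairpin's 2 strands are counted in the same library, so their ratio within a steer does not depend on the scaling. For 16 hairpins both strands were tested, and the ratio of 3p to 5p counts differed between the sides for 2 (two-sided permutation test of 100000 resamples, Benjamini-Hochberg adjusted over 16). The comparison was added after the values of the strands had been seen. For let-7a the log2 ratio was -5.75 ± 0.31 (SD, n = 26) on the high and -6.23 ± 0.47 (SD, n = 26) on the low side, a difference of 0.48 with 23 of 26 high-share steers above the low-share median (permutation test, adjusted p = 0.00088). For miR-22, a muscle-enriched miRNA, it was 4.68 ± 0.51 (SD, n = 26) on the high and 5.20 ± 0.35 (SD, n = 26) on the low side, a difference of -0.52 with 7 of 26 above (permutation test, adjusted p = 0.00088). The strands of miR-22 moved in opposite directions: miR-22-3p fell by 0.31 ± 0.09 (SE) and miR-22-5p rose by 0.20 ± 0.06 (SE). Each call was lost in 3 of 17 alternatives, and that of miR-22-5p also on leaving out 1 of the 52 steers. miR-22-3p averaged 7.37% of the counts other than miR-1 on the low and 6.24% on the high side. It therefore helps to set the share that chose the sides. let-7a comes from several loci whose 3p strands differ, so its ratio mixes precursors.

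**Figure D4:**
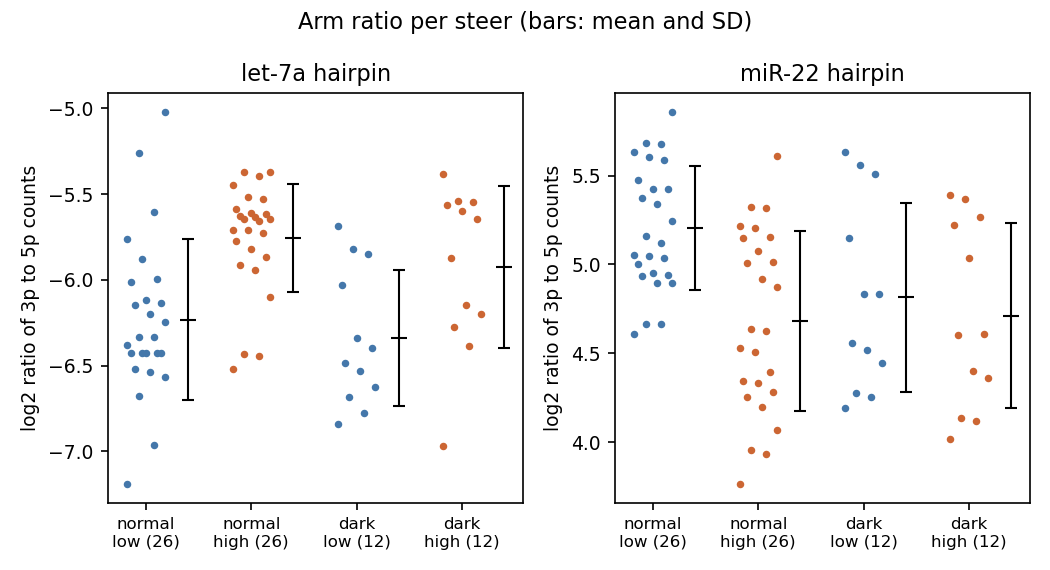
Log2 ratio of 3p to 5p counts of the let-7a and miR-22 hairpins in each steer, by side of the median miR-1 share, for normal and dark-cutting animals, with mean and SD beside the points. In normal steers the high side lies 0.48 higher for let-7a and 0.52 lower for miR-22, and in dark-cutting steers 0.41 higher and 0.10 lower.

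The 25 dark-cutting steers, none of which entered the comparison above, were divided in the same way at their own median of 83.6%. The 12 high-share animals ran from 84.1% to 88.1% and the 12 low-share animals from 79.6% to 83.1%. Their sides were unequal in title numbers, with 1 high-share and 7 low-share steers below 600 (Fisher's exact test, two-sided, p = 0.0272, adjusted p = 0.0816 over 3 measures). Of 231 miRNAs tested, none passed (0.0%), and the smallest adjusted p of edgeR was 0.0862. Unadjusted, 18 had a p under 0.05 (7.79%). DESeq2 called 5, and limma-voom called 1. The 5 called by DESeq2 were miR-7, miR-107, let-7a-3p, miR-101 and miR-30e-5p.

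The 45 calls of the normal steers were followed in these animals. Their share has the same miRNAs in its denominator. Any tie between the share and the other miRNAs that comes from the division therefore recurs here, and the directions are not independent of it. Of the 44 tested in both, 40 had the same direction (90.9%), namely 17 of 17 higher and 23 of 27 lower calls. Over all 221 miRNAs tested in both, 134 did (60.6%), and of the 177 not called in normal steers, 94 (53.1%). The differences of those 177 in normal steers were small, with a median size of 0.11, so their signs are less certain. At an unadjusted p under 0.05, 11 of the 44 differed in the same direction. Their median size was 0.18 on the log2 scale in dark-cutting and 0.32 in normal steers. let-7a-3p had low-share log2 CPM values of 7.99 to 8.78 with a median of 8.51 and high-share values of 8.08 to 9.37 with a median of 8.90. Its difference of 0.47 ± 0.13 (SE) was close to that in normal steers, with 11 of 12 high-share steers above the low-share median (edgeR adjusted p = 0.0894). let-7g had a difference of 0.25 ± 0.09, miR-30a-5p one of 0.29 ± 0.11, miR-30c one of 0.26 ± 0.10 and miR-497 one of -0.39 ± 0.14 (SE), none passing. miR-133a had a difference of -0.18 ± 0.14 (SE), with 3 of 12 high-share steers above the low-share median.

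**Figure D5:**
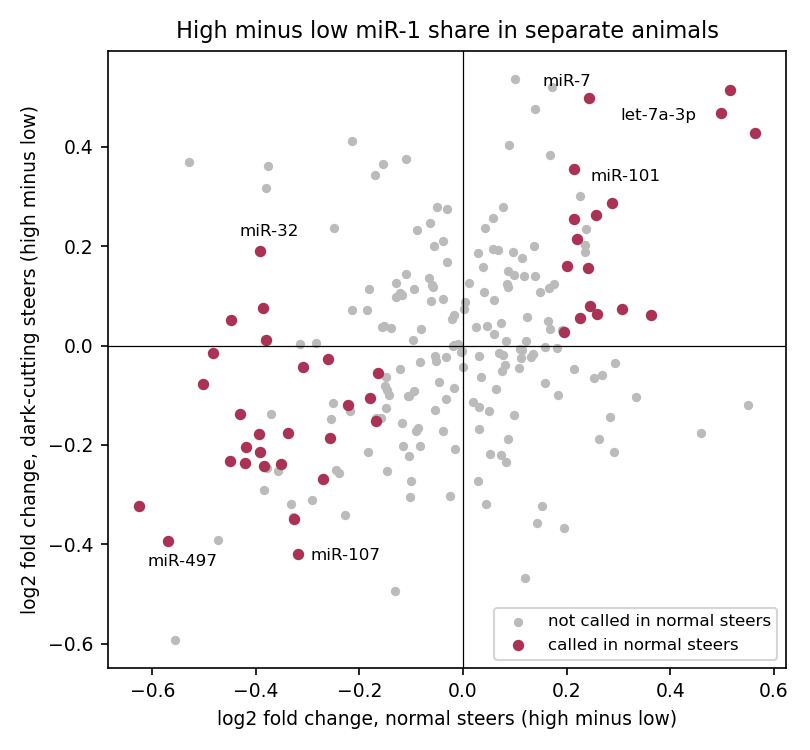
Log2 fold change, high minus low miR-1 share, in normal steers (horizontal axis) and in dark-cutting steers (vertical axis), 1 point per miRNA tested in both. Of the 44 coloured points, called in normal steers, 40 lie in the quadrants of equal direction, and of the 177 grey ones 94 do.

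Some values were unlike in the dark-cutting steers. miR-7 had a difference of 0.50 ± 0.13 (SE) there and of 0.24 ± 0.08 in normal steers, and all 12 high-share dark-cutting animals lay above the low-share median. miR-143 had a difference of 0.24 ± 0.19 (SE), opposite in sign to that in normal steers. miR-486 had one of 0.06 ± 0.13 (SE), and miR-32, which fell by 0.39 ± 0.13 (SE) in normal steers, one of 0.19 ± 0.20 (SE). The other 3 calls with the opposite direction were miR-218, miR-6119-5p and miR-2285bf, none past an unadjusted p of 0.05. The difference between the phenotypes was tested directly for 259 miRNAs. None passed (0.0%, smallest edgeR adjusted p = 0.791), and 9 had an unadjusted p under 0.05 (3.47%), miR-32 and miR-486 among them. The arm ratio of let-7a differed by 0.41 with 11 of 12 high-share steers above the low-share median (permutation test, p = 0.0322, adjusted p = 0.394), and that of miR-22 by -0.10.

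Within normal steers, the difference was also taken separately by title number. Below 600, with 9 steers on each side, 52 of 219 miRNAs passed, 33 of them among the 45. At 600 or above, with 17 steers on each side, 5 of 225 passed, 4 of them among the 45. The sides were those of the division over all normal steers. The median size of the differences of the 45 calls was 0.42 in the lower range, and 0.23 in the upper range for the 44 tested there. let-7a-3p differed by 0.62 ± 0.12 (SE) in the lower and 0.45 ± 0.11 in the upper range, and miR-497 by -0.90 ± 0.14 and -0.40 ± 0.12. miR-208b differed by -1.25 ± 0.16 (SE) in the lower and -0.21 ± 0.24 in the upper range, and miR-29c by -0.78 ± 0.14 and -0.22 ± 0.12. miR-145 and miR-455-3p were steeper in the upper range, miR-145 at -0.20 ± 0.11 (SE) against -0.54 ± 0.15, and miR-455-3p at -0.46 ± 0.22 against -0.68 ± 0.16. The test of the difference between ranges called none of 256 miRNAs (0.0%, smallest edgeR adjusted p = 0.237), while 34 had a p under 0.05 before adjustment (13.3%).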

How the data were processed

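Libraries were made from biopsy RNA with the NEXTflex kit for small RNA (per the labels' protocols). FastQC, Trimmomatic 0.32 and DESeq2 1.34.0 appear in the submitters' processing notes. Aligner, miRNA reference and build: not given in the sources used here. No positions are therefore reported. The deposited table holds unnormalized whole-number counts for 1030 bovine miRNA rows, 741 of them with a count, and 21 identical to an earlier row. Column names matched the title numbers of all 78 steers. The most alike pair of libraries differed beyond sampling noise (chi-square per degree of freedom 9.43, the smallest of 3003 pairs). Steers are separate animals by title number, so p-values measure the spread between animals. Replicate numbers count steers within a phenotype and pair none.

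The miR-1 share is the miR-1 row divided by the column total. Steers above and below the median of their phenotype were compared after removing miR-1, with TMM scaling, edgeR's filterByExpr at a minimum count of 10, and the quasi-likelihood F test of edgeR 4.0.16 in R 4.3.3 with robust dispersion, adjusted by Benjamini-Hochberg at 0.05 over all miRNAs tested. Log2 CPM used a prior count of 2, and a standard error is the log2 difference divided by the square root of F. Arm ratios added 0.5 counts to each strand. Alternatives were DESeq2 1.42.0, limma-voom 3.58.1, other scalings, filters, shares and covariates, and each steer left out. Text names the 12 calls with the smallest p in each direction, the 10 most abundant miRNAs and members of some of 26 lists. Several lists have no member named, and in some the members named are mainly those that passed. Other miRNAs were chosen after their values were seen. The division, members and lists were chosen with earlier results of these data known. The authors' deposited table of phenotype fold changes was not used here.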

Additional observations from a re-analysis of the deposited data

How the results depend on the processing

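In normal steers the 45 calls became 36 to 48 on leaving out each steer in turn, and 30 of the 45 passed in every such fit. Of those, 13 passed also in every alternative that kept all steers and tested the miRNA. Every alternative gave 30 to 60 calls except the steers with title numbers of 600 or above, with 5. Without a low-count filter there were 30, with the 17 outermost steers of each end 60, and with miR-1 relative to the others as a continuous measure 39, of which 29 were among the 45. In dark-cutting steers the 0 calls became 0 to 4 on leaving out each steer. They became 5 with a mean of at least 100 counts, 5 with DESeq2, 1 with limma-voom, 8 with the continuous measure, 7 with the 10 most abundant miRNAs left out of the share, 3 with the log2 total and 1 with the title number range as a covariate. The cause of these changes was not tested.

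The log2 difference changed sign for 1 of the 45 calls, miR-374b, at 0.0030 with the 10 most abundant left out of the share. That setting gave 0.091 for miR-143, and leaving out its own counts gave 0.048. miR-26a was at 0.0082 with DESeq2, with its size factors and without both steers that stood apart. It was at 0.048 when scaled by the total of the others, 0.032 in the outermost steers, 0.0035 below title number 600, and between -0.030 and 0.045 on leaving out 1 steer. miR-206 was at 0.0094 when scaled by the total, 0.0039 with the continuous measure, and between -0.089 and 0.00015 on leaving out 1 steer. miR-499 was at -0.057 below title number 600. miR-451 was at -0.41 with DESeq2, -0.20 with limma-voom, -0.55 with the continuous measure, -0.68 in the outermost steers, -0.41 below 600 and -0.45 without both steers. miR-144 was at -0.58, -0.40, -0.62, -0.80, -1.18 and -0.62 in the same order, and at -0.0024 with the title number range as a covariate. On leaving out 1 steer, miR-451 ran from -0.43 to 0.53 and miR-144 from -0.59 to 0.23, both lowest without normal replicate 19. In dark-cutting steers, miR-195 was at 0.072 with the 10 most abundant left out. miR-486 was at -0.011 when scaled by the total, -0.0011 without a filter, and between -0.012 and 0.12 on leaving out 1 steer. No paired analysis was possible because replicate numbers only count steers within a phenotype. Rows of few counts, such as miR-2284a, are the least precise.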

Other observations

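Of the 45 calls, 13 passed on leaving out each steer and in every alternative that kept all normal steers and tested the miRNA. Among these 13, miR-455-3p was tested in 16 alternatives and the others in 17. They were let-7a-3p, let-7g, let-7f, miR-30a-5p, miR-30c, miR-30d and miR-486 on the higher side and miR-497, miR-15a, miR-455-3p, miR-29c, miR-27a-3p and miR-424-5p on the lower side. Not one miRNA of the skeletal muscle list apart from miR-486 was among them.

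miRNAs not described above also passed. miR-2484 and miR-885 were higher with a high miR-1 share, by 0.51 ± 0.16 and 0.56 ± 0.17 (SE) on the log2 scale, with 23 and 18 of 26 high-share steers above the low-share median. miR-660, miR-101, miR-139 and miR-532 were higher by 0.26, 0.21, 0.24 and 0.20. miR-221, found in endothelium and proliferating cells, fell by 0.43 ± 0.14 (SE), and miR-374a fell by 0.48 ± 0.16 (SE). miR-331-3p, miR-424-5p and miR-185 fell by 0.33, 0.39 and 0.27. The calls of miR-139, miR-532 and miR-185 were lost on leaving out any of 25, 11 and 40 of the 52 steers. Those of miR-660 and miR-374a were each lost in 4 of 17 alternatives. Of the miRNAs in this paragraph, only miR-424-5p passed in every alternative that kept all normal steers.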
